A study of Mus musculus with 5 samples.

Results

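The cell cycle genes described here are 40 genes whose transcripts mark cells that copy their DNA or divide. The 40 were listed by name for their known roles in the cell cycle, at a time when earlier results of these data were known, and each was a row of the 16498 genes in the table of the atherosclerotic aortic arch. Of these genes, 15 act in S phase, when DNA is copied, and 24 act in G2 and mitosis (G2/M), when chromosomes are condensed and separated. Stmn1, which encodes the microtubule regulator stathmin, belongs to neither list. Transcripts of single cells were captured in droplets at their 3′ ends and read in 5 libraries. By the labels, 2 libraries came from Oasl1+/+Apoe-/- mice, called Apoe-/- here, and 3 from Oasl1-/-Apoe-/- mice, which also lacked the interferon-induced gene Oasl1. All mice therefore lacked Apoe, a lipoprotein ligand whose loss makes mice prone to atherosclerosis, and all were kept on normal chow for 28 weeks. Mice were pooled (n = 6, with no statement of whether this is per library or per group), and live cells were taken by DAPI sorting. The labels do not say that the libraries of a group came from separate animals, so that p-values below measure the spread between libraries, which may be technical.

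The targeted gene was examined first. Oasl1 gave 27 and 16 unique molecular identifiers (UMIs, each 1 captured transcript) in the Apoe-/- libraries and 299, 257 and 315 in the libraries labelled Oasl1-/-Apoe-/-. By the authors' description, the mutant allele lacks the promoter region and an early exon. Where the reads lie in the gene was not examined, and the source of these counts was not tested. They run against the label, and the group is called "the libraries labelled Oasl1-/-Apoe-/-" throughout.

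Cells numbered 4078 and 4338 in the Apoe-/- libraries against 3404, 3212 and 3228, with 16959976 to 19813039 UMIs per library. Of 18094 cell barcodes, 165 occurred in more than 1 library. Cells were assigned to types by marker genes. Smooth muscle cells made up 65.3% and 66.9% of the Apoe-/- libraries against 45.5%, 45.6% and 45.3%, and macrophages made up 10.1% and 9.20% against 21.4%, 20.6% and 21.96%. The cells called macrophages had UMIs of 9.25 of 12 macrophage markers on average, and T cells had 7.96 of 12 T cell markers. Smooth muscle cells had 9.23 of 10 and fibroblasts 5.49 of 10 of their own markers, but fibroblasts also had 3.27 of 10 smooth muscle markers. Dendritic cells numbered only 24, 40, 39, 28 and 36 per library and had 3.10 of 10 of their markers.

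Cells that commit to division first load the MCM helicase on their DNA and raise the enzymes that make nucleotides, under the control of E2F factors. Later they accumulate mitotic cyclins, kinases and spindle proteins, whose genes are known to be repressed in resting cells through the CHR promoter element, often with CCAAT boxes nearby. In atherosclerosis, local division is known to contribute to the macrophages of a lesion, and smooth muscle cells of a healthy artery wall rarely divide.

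Promoters of 34 of the 40 genes were found in the RefSeq table (GRCm38.p6), as 300-base windows of 250 bases before and 50 bases after the transcription start. Counts below are of genes, and a gene with several windows, such as Mcm7, was counted if any of them held the letters. Genes with more windows thus had more chances of a match. The CHR letters TTTGAA or TTTAAA, on either strand, were in 18 of 21 G2/M promoters (85.7%) and in 5 of 13 S-phase promoters (38.5%), against 30.6% of the promoters of all 27025 genes in the table. The letters CCAAT were in 18 of 21 and 10 of 13, against 41.1% of all genes. Both motifs together were in 17 of 21 G2/M promoters (81.0%), in 4 of 13 S-phase promoters (30.8%) and in 12.2% of all genes. E2F letters (TTTGGCGC, TTTCCCGC, TTTGCCGC or TTTCGCGC) were in 5 of 13 S-phase promoters (Mcm3, Mcm5, Mcm6, Mcm7 and Pclaf) and in the G2/M promoter of Cdk1, against 2.61% of all genes. E2F matches on the 2 strands overlapped in places, and in Mcm7 an E2F match overlapped a CCAAT match, which does not alter counts of genes. The shares for CCAAT were near each other in the 2 phase lists, those for CHR and E2F letters were farther apart, and the difference between the lists was not tested. The choice of the genes did not use these letters.

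The bases before the start are shown for 2 S-phase and 2 G2/M genes that rose in macrophages (below), each 5′ to 3′ with matches to the 3 motifs in capitals, as examples of the E2F-bearing and CHR-bearing kind. Mcm5 (chr8:75109259-75109508, plus strand) and Mcm6 (chr1:128359706-128359955, minus strand) encode helicase subunits. Cdk1 (chr10:69352913-69353162, minus strand) encodes the kinase that drives mitosis, and Birc5 (chr11:117848987-117849236, plus strand) encodes survivin, a subunit of the chromosomal passenger complex.
Mcm5: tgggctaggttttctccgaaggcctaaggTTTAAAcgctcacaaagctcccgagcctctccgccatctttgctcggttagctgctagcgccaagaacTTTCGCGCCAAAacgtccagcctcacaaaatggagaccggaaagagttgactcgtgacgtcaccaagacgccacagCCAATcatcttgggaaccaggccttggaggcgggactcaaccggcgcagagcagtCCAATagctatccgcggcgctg
Mcm6: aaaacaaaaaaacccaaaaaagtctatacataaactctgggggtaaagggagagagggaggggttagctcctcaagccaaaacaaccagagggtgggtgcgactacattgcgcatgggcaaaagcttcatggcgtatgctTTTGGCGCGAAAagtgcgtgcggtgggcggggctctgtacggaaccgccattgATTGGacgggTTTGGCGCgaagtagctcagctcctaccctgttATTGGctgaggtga
Cdk1: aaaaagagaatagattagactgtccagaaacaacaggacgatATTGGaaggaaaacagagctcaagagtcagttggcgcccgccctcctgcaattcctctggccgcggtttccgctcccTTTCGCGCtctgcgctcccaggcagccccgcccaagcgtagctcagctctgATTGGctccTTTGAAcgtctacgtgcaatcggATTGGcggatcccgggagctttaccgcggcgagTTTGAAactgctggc
Birc5: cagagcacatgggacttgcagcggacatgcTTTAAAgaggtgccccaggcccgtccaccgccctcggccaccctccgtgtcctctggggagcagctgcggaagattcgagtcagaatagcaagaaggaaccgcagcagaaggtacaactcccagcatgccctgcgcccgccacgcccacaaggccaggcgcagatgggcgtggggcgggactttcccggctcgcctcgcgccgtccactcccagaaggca

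Mcm5 and Mcm6 each showed an E2F match that reads on both strands, in the middle of the stretch, with CCAAT matches between it and the start. Cdk1 held E2F, CCAAT and CHR matches, whereas Birc5 held only 1 CHR match, far from the start, and no CCAAT match.

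The UMIs of the genes were then placed by whether a cell was called as cycling. A cell was called as cycling when it had a UMI of at least 3 different G2/M genes, which held for 333 of 18260 cells. These cells carried 78.0% of all UMIs of the G2/M genes, from 45.4% for Kif23, a motor of cell division, to 98.03% for Hmmr, a spindle protein (median 87.1%). That high share follows from the rule, which used these genes, so that it cannot be compared with the share of the S-phase genes. For the S-phase genes, which the rule did not use, the called cells carried 26.3% of UMIs, from 10.3% for Mcm6 to 92.2% for Pclaf (median 26.4%). Thus Pclaf, a partner of the replication clamp, Rrm2, the regulated subunit of ribonucleotide reductase (77.2%), and Tk1, thymidine kinase (74.5%), lay mostly in called cells. Mcm6, Dut, which encodes the enzyme that clears dUTP (11.9%), Mcm4 (12.2%) and Pcna, the clamp itself (13.3%), lay mostly outside them. Dut was found in 17.7% of the cells that were not called, and Cenpa, the centromeric histone, in 5.01%. Stmn1 lay in between, with 67.3% of its UMIs in called cells and a UMI in 95.5% of them.

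**Figure D1:**
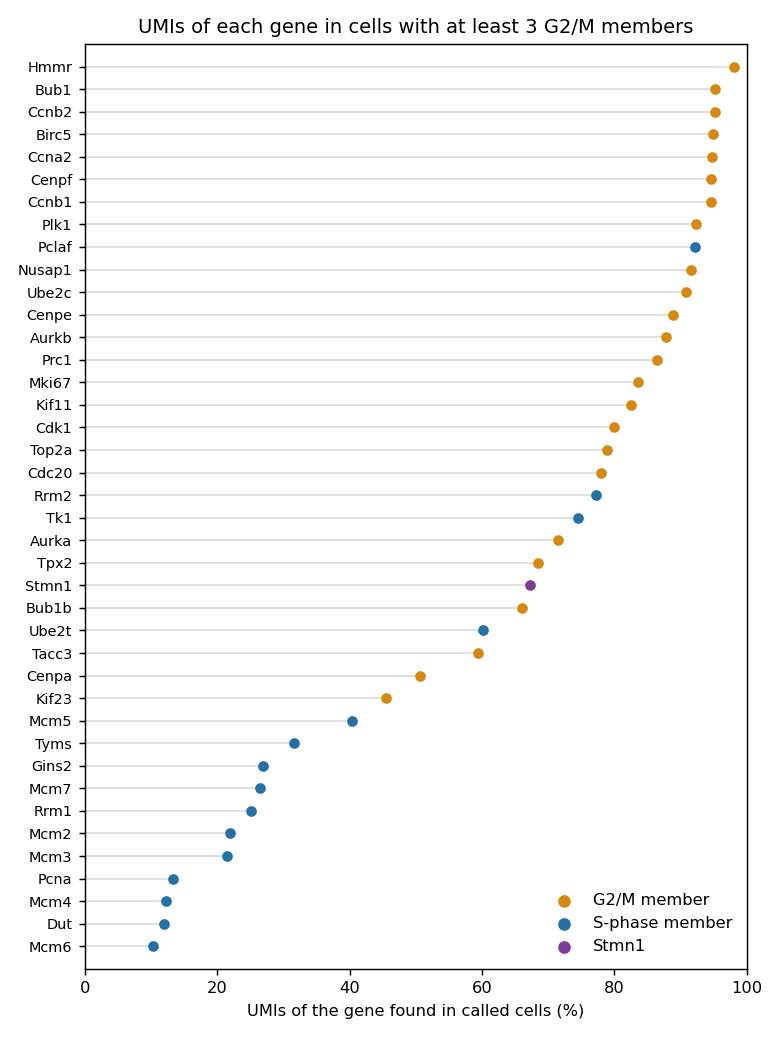
Share of the UMIs of each of the 40 genes (rows) found in the 333 called cells, in percent of the UMIs of the gene over all 18260 cells. G2/M genes made the call, so that their place at the top (median 87.1%) follows from it. S-phase genes, which the call did not use, spread from 10.3% (Mcm6) to 92.2% (Pclaf).

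Macrophages made up 15.9% of all cells and held 43.0% of the UMIs of the G2/M genes and 28.8% of those of the S-phase genes. Smooth muscle cells made up 55.0% of all cells and held 10.2% of the G2/M UMIs but 39.7% of the S-phase UMIs, and only 2.74% of their S-phase UMIs lay in called cells. Dut and Mcm6 had 58.3% and 55.9% of their UMIs in smooth muscle cells. Of the called cells, 179 (53.8%) were macrophages, 28 fibroblasts, 24 T cells, 15 endothelial cells, 12 dendritic cells, 11 smooth muscle cells and 9 monocytes, and 47 were of no assigned type. The share of macrophages called exceeded that of T cells, smooth muscle cells, endothelial cells and monocytes in 5 of 5 libraries (exact sign-flip test, p = 0.0625 each, the smallest that 5 pairs allow). It exceeded that of fibroblasts in 4 of 5 (p = 0.125, exact) and that of dendritic cells in 3 of 5. These shares are at full depth, and T cells were shallower, with a median of 1764 UMIs against 5431 in macrophages. With cells thinned to 1000 UMIs and called on 2 genes, macrophage shares were 3.79% and 1.70% (Apoe-/-) against 6.00%, 4.17% and 4.70%. Those of T cells were 2.41% and 2.63% against 6.43%, 4.05% and 5.80%, so that the order of these types varied between libraries.

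The share of cycling cells per cell type was then compared between the groups. In macrophages, 4.38% and 3.51% were called in the Apoe-/- libraries against 8.63%, 6.05% and 6.21% in the libraries labelled Oasl1-/-Apoe-/-. The groups did not overlap, and the means differed by 3.02 percentage points (exact two-sided permutation test, p = 0.1, adjusted over 7 cell types p = 0.35). With 2 against 3 libraries, 0.1 is the smallest p this test can give. Pooled over libraries, 32 of 810 macrophages (3.95%, Wilson 95% interval 2.81 to 5.52%) and 147 of 2100 (7%, 5.99 to 8.17%) were called, intervals that cover counting error only. Called macrophages were deeper than the others, with a median of 8720 against 5290 UMIs, while the median over all macrophages was 5442 and 5176 UMIs in the Apoe-/- libraries against 5307, 5364 and 5743. With each cell thinned to 1000 UMIs and called on 2 genes, the shares were 3.79% and 1.70% against 6.00%, 4.17% and 4.70%, again without overlap. Shallower macrophages were left out of this count, 89 over the Apoe-/- libraries and 113 over the others (245 and 311 cells over all types).

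Among smooth muscle cells, which had the lowest share in each group when libraries were pooled, 0.0376% and 0.0344% were called against 0.194%, 0.273% and 0.137% (p = 0.1, exact permutation test), which is 2 of 5565 against 9 of 4477 cells. The groups did not overlap. The 11 called cells had UMIs of 2.36 of 12 macrophage markers on average against 0.680 in all smooth muscle cells, and the part of such mixed cells in the share was not tested. In T cells the shares overlapped, at 3.45% and 2.47% against 4.67%, 3.09% and 4.83% (p = 0.3, exact permutation test). This depended on the call. Thinned T cells did not overlap, at 2.41% and 2.63% against 6.43%, 4.05% and 5.80%, nor did T cells under a stricter gate (2.67% and 2.94% against 4.72%, 3.13% and 5.47%) or called on at least 2 G2/M genes (3.45% and 2.47% against 10.0%, 6.79% and 7.59%), whereas a call on at least 5 genes overlapped. The difference of the means moved from 1.23 to 2.91, 1.64 and 5.17 percentage points, and to 0.347 on 5 genes. Endothelial cells (1.33% and 0.949% against 1.93%, 0.980% and 1.15%) and monocytes (2.50% and 0% against 2.96%, 1.55% and 0.855%) overlapped too, each with p = 0.8 in the exact permutation test. Under the stricter gate, endothelial cells did not overlap, at 0.508% and 0.485% against 2.16%, 1.41% and 1.79% (difference 1.29 in place of 0.213 percentage points, p = 0.1, exact permutation test). They did not overlap on at least 5 G2/M genes either (difference 0.713), but did after thinning (0.184).

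Few cells stood behind the remaining types. In dendritic cells 0% and 2.50% were called against 5.13%, 17.9% and 11.1% (p = 0.2, exact permutation test), from 1 of 64 and 11 of 103 cells. In fibroblasts 0% and 1.89% were called against 2.73%, 3.52% and 7.11% (p = 0.2, exact permutation test), from 2 of 204 and 26 of 579 cells. Neither overlapped at full depth, but both overlapped after thinning, at 0% and 2.50% against 2.63%, 14.3% and 0% in dendritic cells and 0% and 1.94% against 1.70%, 3.16% and 4.71% in fibroblasts. Fibroblasts were shallower in the Apoe-/- libraries, with median UMIs of 4065 and 4340.5 against 5886, 5741 and 6285, and called fibroblasts had 4.86 of 10 smooth muscle markers. The part of depth and of mixed cells in these shares was not tested.

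A call on at least 3 S-phase genes gave a wider set of cells. In macrophages it marked 7.54% and 5.01% against 13.01%, 12.6% and 12.5%, with no overlap (p = 0.1, exact permutation test). Fibroblasts (2.04% and 3.77% against 10.4%, 10.1% and 17.3%), smooth muscle cells (1.54% and 1.79% against 2.91%, 2.80% and 3.15%) and endothelial cells (2.67% and 0.949% against 3.86%, 3.43% and 3.45%) did not overlap either, each with p = 0.1 in the exact permutation test. Dendritic cells did not overlap, at 0% and 2.50% against 7.69%, 21.4% and 11.1% (p = 0.2, exact permutation test), and monocytes overlapped. Endothelial cells, like fibroblasts, were shallower in the Apoe-/- libraries, with median UMIs of 2761.5 and 2850.5 against 3415, 3468.5 and 3483. With cells thinned to 1000 UMIs and called on 2 S-phase genes, a setting chosen after the data were seen, macrophages (2.98% and 2.27% against 4.69%, 4.17% and 4.70%) and fibroblasts (0% and 0.971% against 2.26%, 1.05% and 3.14%) still did not overlap. Smooth muscle cells (0.678% and 0.485% against 1.04%, 1.30% and 0.618%) and endothelial cells (0.340% and 1.63% against 2.45%, 1.49% and 2.34%) then overlapped. Dendritic cells overlapped as well, at 0% and 2.50% against 2.63%, 0% and 2.78%. T cells overlapped at full depth, at 9.20% and 8.64% against 10.7%, 6.17% and 8.28% (difference of the means -0.547 percentage points, p = 0.7, exact permutation test), and after thinning they were lower without overlap, at 8.43% and 7.89% against 7.14%, 5.41% and 5.80% (p = 0.2, exact permutation test). Of 380 macrophages called on either list, 201 were called on S-phase genes only, 117 on both and 62 on G2/M genes only. In smooth muscle cells, 217 of 228 were called on S-phase genes only.

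**Figure D2:**
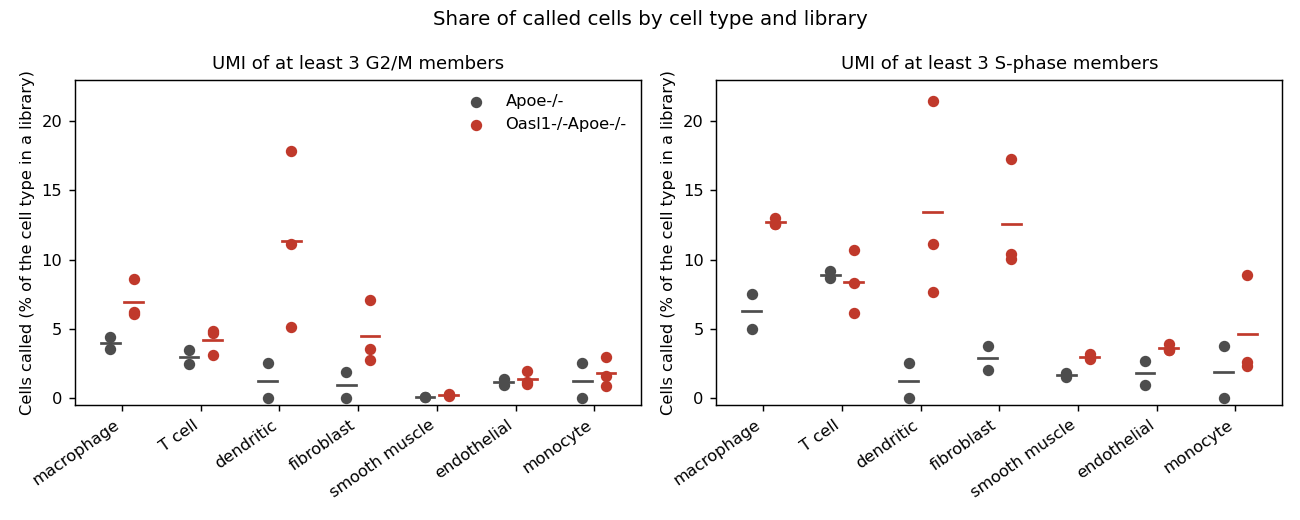
Percent of the cells of each type called in each library, on at least 3 G2/M genes (left) or at least 3 S-phase genes (right). Points are libraries (2 Apoe-/-, grey, and 3 labelled Oasl1-/-Apoe-/-, red) and bars their means. Macrophages, dendritic cells, fibroblasts and smooth muscle cells do not overlap in either panel. T cells and monocytes overlap in both, and endothelial cells overlap only at the left.

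Over all cells of a library, 0.932% and 0.715% were called against 3.03%, 2.24% and 2.76%, or 69 of 8416 against 264 of 9844 cells (p = 0.1, exact permutation test). With each library set to the mean cell type makeup of the 5 libraries, the shares were 1.26% and 1.03% against 2.42%, 1.86% and 2.16%, so that the difference of the means was 0.998 in place of 1.85 percentage points. The groups did not overlap in either form.

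Gene levels were compared as mean UMIs per 10000 (CP10K) over the cells of a library, with limma on log2(CP10K + 0.05), a scale that understates the differences of low genes. Over all cells, 20 of the 40 genes passed the filter of 0.05 CP10K, and 17 of these rose in the libraries labelled Oasl1-/-Apoe-/- (adjusted p under 0.05, Benjamini-Hochberg over all genes tested), against 20.5% of all 9836 genes tested. They were all 6 G2/M genes tested, 10 of 13 S-phase genes and Stmn1, and none fell. The filter took the mean of all 5 libraries, and 18 of the 24 G2/M genes were under it. Birc5, Cdk1, Top2a, Cdc20, Pclaf, Tk1, Mcm5 and Gins2 were under 0.05 CP10K in both Apoe-/- libraries. They passed only through the libraries where they were high, so that the filter favoured rises in these counts. The median log2 difference of the 20 genes was 0.46, against -0.03 over all genes. These are levels over all cells, in which more cells of a type and more RNA per cell cannot be told apart, and the makeup given above moved with them.

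Among the mitotic genes, Birc5 had 0.0398 and 0.03001 CP10K against 0.159, 0.128 and 0.155 (log2 difference 1.22, SE 0.09, adjusted p = 3.76e-06, limma). Ube2c, the ubiquitin-conjugating enzyme of the anaphase-promoting complex, had 0.0426 and 0.0639 against 0.174, 0.124 and 0.119 CP10K (0.87, SE 0.13, adjusted p = 0.000393, limma). For both genes, every library labelled Oasl1-/-Apoe-/- was above both Apoe-/- libraries. Cdk1 had 0.0248 and 0.0175 against 0.0715, 0.0681 and 0.0788 CP10K (0.79, SE 0.08), and Top2a, the topoisomerase that untangles sister chromatids, had 0.0275 and 0.0354 against 0.0887, 0.0549 and 0.102 CP10K (0.68, SE 0.14). Cdc20, an activator of the anaphase-promoting complex, had 0.0356 and 0.0261 against 0.0728, 0.0565 and 0.0635 CP10K, and Cenpa had 0.218 and 0.162 against 0.333, 0.247 and 0.293 CP10K (0.50 and 0.51, SE 0.09 and 0.12). No library overlapped for these 6 genes, but they were named for passing the threshold, a choice that favours such a gap.

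Among the replication genes, Pclaf had 0.0435 and 0.0377 against 0.118, 0.107 and 0.0994 CP10K (log2 difference 0.80, SE 0.08, adjusted p = 2.67e-05, limma), and Tk1 had 0.0192 and 0.0296 against 0.0746, 0.0724 and 0.0666 CP10K (0.71, SE 0.09). These are the genes whose UMIs lay mostly in called cells. Mcm5 had 0.0311 and 0.0233 against 0.0768, 0.0701 and 0.0535 CP10K (0.59, SE 0.10), and Gins2, part of the active helicase, had 0.0435 and 0.0453 against 0.0794, 0.0784 and 0.0726 CP10K (0.42, SE 0.07). Smaller differences were found for Mcm7 (0.0591 and 0.0668 against 0.103, 0.0783 and 0.0971 CP10K), Mcm2 (0.0531 and 0.0427 against 0.0804, 0.0698 and 0.0680) and Mcm3 (0.0743 and 0.0605 against 0.0967, 0.0981 and 0.0940), with log2 differences of 0.33, 0.33 and 0.32. Pcna (0.212 and 0.234 against 0.314, 0.276 and 0.266 CP10K), Tyms, thymidylate synthase (0.0895 and 0.0932 against 0.101, 0.134 and 0.125), and Rrm1, the large subunit of ribonucleotide reductase (0.0934 and 0.0845 against 0.131, 0.107 and 0.107), differed by 0.30, 0.26 and 0.24.

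Dut (0.454 and 0.451 against 0.450, 0.493 and 0.431 CP10K), Mcm6 (0.267 and 0.238 against 0.291, 0.322 and 0.260) and Mcm4 did not pass the threshold and overlapped between the groups. Stmn1 had 0.325 and 0.285 against 0.775, 0.575 and 0.681 CP10K (1.03, SE 0.10, adjusted p = 2.51e-05, limma). Calls for Mcm2, Mcm3, Mcm7, Pcna, Rrm1 and Tyms were lost when 1 of the libraries was left out, and the other 11 were kept with each library left out. Mcm2 and Mcm3 were lost without Apoe-/- replicate 2 and Pcna without Apoe-/- replicate 1 (adjusted p = 0.089, 0.0765 and 0.0566, limma). Mcm7 was lost without Apoe-/- replicate 1 and without replicate 1 or 3 labelled Oasl1-/-Apoe-/-, Rrm1 without any library but replicate 2 so labelled, and Tyms without any but replicate 1 so labelled (limma, adjusted p = 0.05001 to 0.193). Without the called cells, 5 genes were past the threshold among 12 tested (Gins2, Mcm2, Mcm3, Pcna and Stmn1), against 19.6% of all 9823 genes tested.

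In macrophages, 30 genes passed the filter and 13 rose, against 9.95% of all 7893 genes tested in these cells, and none fell. The median log2 difference of the 30 genes was 0.60, against 0.05 over all genes. Of the 30, 20 had an unadjusted p under 0.05, as did 2274 of all 7893 genes (limma). The means of the 13 genes were 1.58 (Stmn1) to 2.95 (Mcm5) times as high in the libraries labelled Oasl1-/-Apoe-/-. They included 5 of the 6 helicase subunits, 3 genes of nucleotide supply, 4 G2/M genes and Stmn1.

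Of the helicase genes, Mcm5 had 0.0753 and 0.0488 CP10K against 0.205, 0.212 and 0.132 (log2 difference 1.05, SE 0.20, adjusted p = 0.00157, limma). Mcm6 had 0.210 and 0.1195 against 0.352, 0.373 and 0.301 CP10K (0.90, SE 0.18, adjusted p = 0.00231, limma). In both, the lowest library labelled Oasl1-/-Apoe-/- was well above the highest Apoe-/- library. Mcm7 had 0.0772 and 0.0564 against 0.159, 0.144 and 0.160 CP10K (0.81, SE 0.18), Mcm3 had 0.106 and 0.0984 against 0.234, 0.201 and 0.201 CP10K (0.78, SE 0.17), and Mcm2 had 0.0753 and 0.0340 against 0.158, 0.106 and 0.126 CP10K (0.80, SE 0.21). The sixth subunit, Mcm4, was low in these cells and overlapped, at 0.0736 and 0.0402 against 0.101, 0.0670 and 0.0358 CP10K (0.12, SE 0.24).

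Of the nucleotide genes, Rrm2 had 0.0337 and 0.0984 against 0.177, 0.197 and 0.162 CP10K (1.03, SE 0.22, adjusted p = 0.00338, limma) and Rrm1 had 0.0778 and 0.0396 against 0.160, 0.122 and 0.118 CP10K (0.77, SE 0.20). Dut had 0.190 and 0.175 against 0.370, 0.313 and 0.302 CP10K (0.70, SE 0.15, adjusted p = 0.00412, limma), whereas its levels over all cells overlapped. Pcna, with the most UMIs of the S-phase list in macrophages (903), overlapped, at 0.438 and 0.559 against 0.465, 0.498 and 0.456 CP10K (-0.06, SE 0.13). Ube2t, a repair enzyme, had 0.0498 and 0.0234 against 0.0777, 0.0734 and 0.0819 CP10K and just missed the threshold (0.58, adjusted p = 0.0551, limma). Gins2, Pclaf, Tk1 and Tyms had log2 differences of 0.27, 0.22, 0.48 and 0.50 and did not pass.

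Of the G2/M genes, Birc5 had 0.224 and 0.131 against 0.402, 0.360 and 0.381 CP10K (0.95, SE 0.17, adjusted p = 0.000861, limma). Cdk1 had 0.0806 and 0.137 against 0.209, 0.166 and 0.214 CP10K (0.65, SE 0.19), Ccna2, a cyclin of S phase and G2, had 0.0520 and 0.0463 against 0.119, 0.0778 and 0.116 CP10K (0.63, SE 0.19), and Kif23 had 0.0401 and 0.0227 against 0.121, 0.0569 and 0.0740 CP10K (0.70, SE 0.22). None of the 4 genes overlapped, but they were named for passing the threshold, a choice that favours such a gap. Kif23 was under the filter value in both Apoe-/- libraries and passed it through the others. Cenpa and Ube2c, which have the most UMIs of the G2/M list beside Birc5, overlapped in macrophages, at 0.533 and 0.445 against 0.513, 0.421 and 0.438 CP10K (-0.09, SE 0.13) and at 0.155 and 0.301 against 0.397, 0.296 and 0.227 CP10K (0.38, SE 0.22). Top2a had a log2 difference of 0.73 and an adjusted p of 0.0502 (limma). Ccnb1, Ccnb2, the mitotic cyclins, and Mki67, the widely used proliferation marker, had differences of 0.19, 0.52 and 0.21, and Tpx2, Aurkb, Cdc20 and Tacc3 had 0.62, 0.44, 0.49 and 0.02, all past the filter but not the threshold. The other 10 G2/M genes (Cenpf, Cenpe, Bub1, Bub1b, Aurka, Plk1, Nusap1, Kif11, Hmmr and Prc1) were below the filter, at mean levels of 0.0157 to 0.0497 CP10K, and were not tested.

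**Figure D3:**
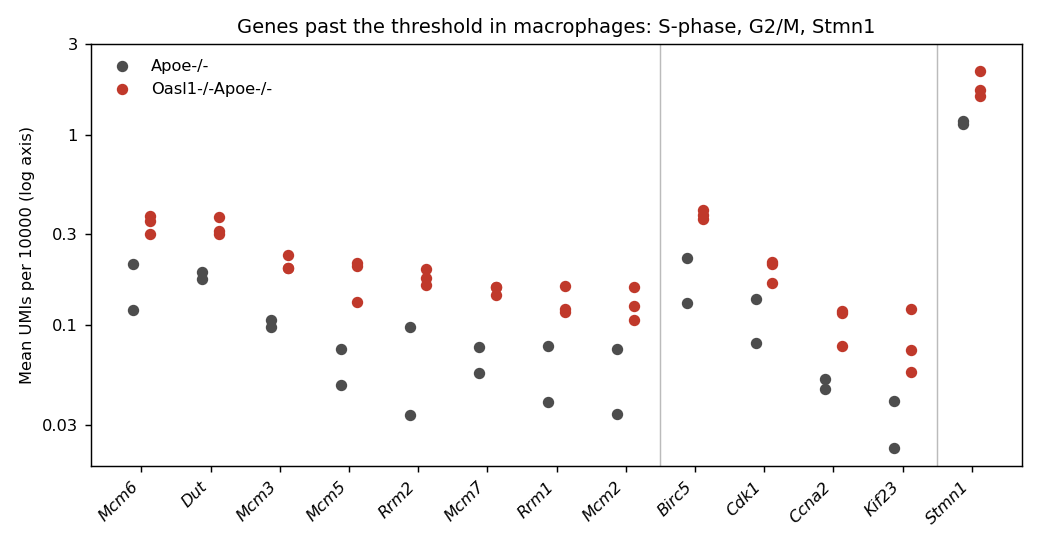
Mean UMIs per 10000 in macrophages of each library (log axis) for the 13 genes past the threshold, with S-phase genes left of the first line, G2/M genes between the lines and Stmn1 at the right. Points are libraries (2 Apoe-/-, grey, and 3 labelled Oasl1-/-Apoe-/-, red), and for each gene all red points lie above both grey points. The genes were chosen by the threshold, which favours such a gap.

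Stmn1 had 1.18 and 1.14 against 2.17, 1.60 and 1.72 CP10K in macrophages (0.62, SE 0.11, adjusted p = 0.000592, limma). With each library left out in turn, Birc5, Dut, Mcm3, Mcm5, Mcm6, Mcm7, Rrm2 and Stmn1 stayed past the threshold. Ccna2, Cdk1, Kif23, Mcm2 and Rrm1 were lost in at least 1 case each (adjusted p up to 0.186, limma), and all 5 were lost without replicate 1 labelled Oasl1-/-Apoe-/-, which left 8 genes. Ccna2, Kif23 and Mcm2 were also lost without Apoe-/- replicate 2 and without replicate 3 labelled Oasl1-/-Apoe-/-, Rrm1 also without Apoe-/- replicate 2, and Cdk1 without any library but that one. When macrophages called as cycling were set aside, 17 genes passed the filter and 6 rose, against 9.25% of all 7808 genes tested. They were Mcm5 (log2 difference 1.01), Mcm6 (0.89), Mcm3 (0.76), Mcm2 (0.72), Mcm7 (0.60) and Dut (0.56). Cdk1 (0.42, adjusted p = 0.247, limma) and Stmn1 (0.29, adjusted p = 0.173, limma) no longer passed, and Birc5 fell below the filter. The cells were set aside for their G2/M genes, so that the loss of G2/M calls follows from that rule and is not compared with the S-phase calls that were kept.

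In T cells, 32 genes passed the filter and none was past the threshold (0 also with limma-voom on summed UMIs), against 1.1% of all 8071 genes tested. Birc5 (0.0906 and 0.0368 against 0.422, 0.209 and 0.307 CP10K) and Mki67 (0.0323 and 0 against 0.104, 0.189 and 0.154) had an unadjusted p under 0.05, and neither overlapped between the groups (adjusted p = 0.16 and 0.295, limma). These 2 of 32 genes are a smaller share than the 988 of all 8071 genes with an unadjusted p under 0.05 (limma). The median over the 32 genes was 0.10, near the 0.09 of all genes. In dendritic cells none of 30 genes tested was past the threshold (0 also with limma-voom), against 0.0534% of all 7484 genes tested, although their median was 1.0 against 0.07. Of the 30 genes, 5 had an unadjusted p under 0.05 (Pclaf, Birc5, Stmn1, Mcm5 and Top2a), as did 545 of all 7484 genes (limma). The filter took the mean of all 5 libraries. Genes low in the Apoe-/- libraries could thus pass through the others, which favours a rise in the median of the 30 genes. Birc5 was listed at 0 in both Apoe-/- libraries and had 0.110, 0.915 and 0.269 CP10K in the others, from 4, 32 and 10 UMIs. Pclaf had 0 and 0.148 against 0.581, 0.968 and 0.464 CP10K (adjusted p = 0.187, limma).

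In fibroblasts 1 of 25 genes tested rose, against 2.06% of all 9518 genes tested. It was Stmn1, at 0.155 and 0.345 against 0.495, 0.491 and 0.881 CP10K (1.19, SE 0.30, adjusted p = 0.0386, limma). Of the 25 genes, 8 had an unadjusted p under 0.05, as did 1517 of all 9518 genes (limma). The call of Stmn1 was lost without Apoe-/- replicate 1 and without any of the 3 other libraries (adjusted p = 0.0864 to 0.274, limma), and 5 genes passed without Apoe-/- replicate 2. In Apoe-/- replicate 1, the fibroblasts had 0.0384 CP10K summed over all 24 G2/M genes, against 1.92 in replicate 2 and 1.38, 1.69 and 2.97 in the libraries labelled Oasl1-/-Apoe-/-. Among smooth muscle cells 8 genes passed the filter, none of them of the G2/M list, and 1 rose, against 5.32% of all 9030 genes tested. It was again Stmn1, at 0.0745 and 0.0585 against 0.129, 0.0845 and 0.0967 CP10K (0.39, SE 0.12, adjusted p = 0.0497, limma), and the call was lost without Apoe-/- replicate 2 and without replicate 1 or 3 labelled Oasl1-/-Apoe-/- (adjusted p = 0.12 to 0.325, limma). Without the called cells, Stmn1 had log2 differences of 0.23 in fibroblasts and 0.09 in smooth muscle cells and passed in neither (adjusted p = 0.833 and 0.658, limma). Dut (0.509 and 0.496 against 0.446, 0.544 and 0.448 CP10K) and Mcm6 (0.281 and 0.286 against 0.282, 0.325 and 0.292) overlapped between the groups in smooth muscle cells.

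None of 14 genes tested was past the threshold in endothelial cells, against 1.79% of all 9429 genes tested, and none of 13 in monocytes, against 3.42% of all 8148 genes tested (limma). With limma-voom on summed UMIs, 3 cell cycle genes passed in endothelial cells and 0 in monocytes. The count of all genes in endothelial cells under that model is not given here. Mcm7 and Birc5 had an unadjusted p under 0.05 in endothelial cells, both higher, and Cenpa in monocytes, where it was lower, at 1.89 and 0.965 against 0.786, 0.886 and 0.878 CP10K. These are 2 of 14 genes, against 992 of all 9429 in endothelial cells, and 1 of 13, against 1480 of all 8148 in monocytes (limma).

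**Figure D4:**
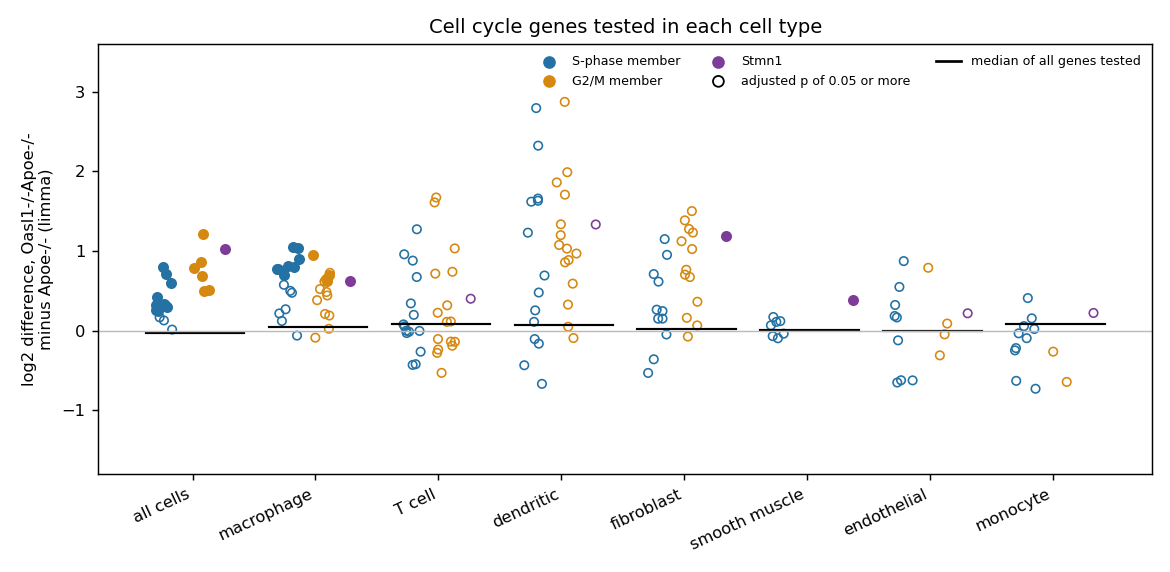
Log2 difference (libraries labelled Oasl1-/-Apoe-/- minus Apoe-/-, limma) of each cell cycle gene tested, over all cells and in each cell type. Filled points are past the threshold, open points are not, and black lines are the medians of all genes tested; all filled points are above 0, with 17 over all cells, 13 in macrophages and 1 each in fibroblasts and smooth muscle cells.

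A call in macrophages and none in another type does not show that the types differ, so that the difference was tested within libraries, a test chosen after the data were seen. Of the genes tested, 0 of 29 differed between macrophages and T cells, 0 of 28 between macrophages and dendritic cells and 0 of 22 between macrophages and fibroblasts (limma, over 6715, 6727 and 7100 genes, of which 0, 0 and 1 were past the threshold). An unadjusted p under 0.05 was found for 6, 3 and 2 of these genes, and the 6 were Ube2t, Dut, Mcm7, Cdk1 and Mcm5, larger in macrophages, and Mki67, larger in T cells. Against smooth muscle cells 1 of 8 genes differed, and 240 of 6815 over all genes. It was Mcm7, whose log2 difference was larger in macrophages by 0.85 (SE 0.14, adjusted p = 0.0274, limma). Dut, Tyms, Mcm6 and Rrm1 were larger in macrophages by 0.77, 0.60, 0.83 and 0.66 but did not pass (adjusted p = 0.053, 0.0534, 0.0667 and 0.0823, limma).

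The balance of the phases was given by log2 of the summed CP10K of the 15 S-phase genes over that of the 24 G2/M genes. In macrophages it was -0.05 and 0.05 in the Apoe-/- libraries and 0.02, 0.18 and 0.05 in the others, and the groups overlapped (difference 0.08, p = 0.6, exact permutation test). Both sums were higher in the libraries labelled Oasl1-/-Apoe-/-, with S-phase sums of 1.84 and 1.93 against 3.30, 2.98 and 2.74 CP10K and G2/M sums of 1.91 and 1.86 against 3.24, 2.63 and 2.65 CP10K. Taken as the mean of log2 levels, which weights the genes equally, the balance was higher by 0.18 in the libraries labelled Oasl1-/-Apoe-/- and did not overlap (p = 0.1, exact permutation test). T cells had values of 0.64 and 0.67 against 0.23, 0.72 and 0.41 and overlapped. For smooth muscle cells it was 3.09 and 3.22 against 2.59, 2.93 and 2.49, with no overlap (difference -0.48, p = 0.2, exact permutation test). As the mean of log2 levels, it overlapped in these cells, at 0.948 and 0.94999 against 0.934, 0.9996 and 0.898 (difference -0.0053, p = 0.9, exact permutation test). By the summed levels, smooth muscle cells had the highest balance of the types in each library, apart from the fibroblasts of Apoe-/- replicate 1 (5.19), whose G2/M sum was near 0.

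Called macrophages were compared with the other macrophages of the same library, with the library as a block, on genes the call did not use. Of the S-phase genes, 14 of 15 were higher in called cells, against 6.08% of all 8161 genes tested, with a median log2 difference of 2.02 against 0.03 over all genes. Pclaf had 2.09, 3.32, 2.91, 2.78 and 2.35 CP10K in the called cells of the 5 libraries and 0.0877, 0.0981, 0.0487, 0.0377 and 0.0638 in the others (4.56, SE 0.22, adjusted p = 3.58e-09, limma). Rrm2 (3.79), Tk1 (3.63) and Tyms (3.36) followed, while Mcm6 (1.14) and Mcm3 (1.63) differed less and Mcm4 did not pass (0.62, adjusted p = 0.406, limma). Stmn1 had 15.0, 15.7, 16.5, 14.7 and 18.8 CP10K in called cells against 0.544, 0.612, 0.815, 0.762 and 0.588 (4.51, SE 0.13). The 24 G2/M genes, which made the call, had a median difference of 3.79, given here as a description.

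Of 40 further G2/M genes, 37 of 39 tested were higher in called macrophages, and of 26 further S-phase genes, 14 of 19 tested. The filter took the mean over called and other cells. Genes low in other macrophages could thus pass through the called cells, which favoured rises in these counts, also after thinning (below). Over all macrophages, only 20 of the 40 further G2/M genes and 10 of the 26 further S-phase genes passed the filter. The chromatin gene H2afz, a histone variant with copies elsewhere in the genome that may share reads, had 26.3 to 32.4 against 7.15 to 7.93 CP10K. Of 16 G1 cyclins, kinases and E2F factors tested, 4 were higher, namely Foxm1, a factor of mitotic genes (2.09), Ccne1, cyclin E1 (2.18), E2f2 (1.68) and Cdk4 (0.68). Over all macrophages, Foxm1, Ccne1 and E2f2 were under the filter, so that they were tested here only through the called cells. Of 15 inhibitors tested, 2 were higher and 3 lower. The 2 were the INK4 inhibitors Cdkn2c, at 0.660, 0.767, 1.24, 0.827 and 0.829 against 0.0438 to 0.0707 CP10K (3.05, SE 0.26), and Cdkn2d (2.19, SE 0.18). Those lower were Cdkn1c (-1.90), Gadd45b (-0.60) and Btg1 (-0.45).

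Of 7 foamy macrophage genes, 6 were lower in the called cells, against 1.96% of all 8161 genes tested. Fabp5, a fatty acid carrier, had 27.1, 33.6, 8.39, 6.97 and 5.85 against 56.9, 63.2, 20.02, 17.8 and 18.9 CP10K (-1.25, SE 0.09, adjusted p = 4.13e-07, limma). Gpnmb, a membrane glycoprotein of lipid-laden macrophages, had 11.5, 6.87, 5.50, 4.01 and 3.93 against 24.1, 24.2, 10.8, 9.90 and 11.1 CP10K (-1.32, SE 0.11). Both were lower in called cells in 5 of 5 libraries, as were Spp1, Lpl, Ctsd and Trem2 (-0.91, -0.50, -0.53 and -0.48), while Cd9 did not pass (-0.12). Of 6 inflammatory genes, Il1b (-1.07) and Cxcl2 (-0.71) were lower, of 5 resident genes tested F13a1 (-1.46), and of 13 interferon genes Ifi27l2a was higher (0.85). Called cells were deeper, as given above. With all cells thinned to 1000 UMIs, the median of all genes shifted to -0.38 and 119 genes passed in place of 656. Then Pclaf, Tk1, Tyms, Rrm1 and Mcm5 were still higher, as were 14 further G2/M genes and no further S-phase gene (8 with an unadjusted p under 0.05, limma), and 5 foamy genes, Il1b and Cxcl2 were still lower, against 0.899% of all 8011 genes higher and 0.587% lower. The 4 G1 genes, Cdkn2c, Cdkn1c, Gadd45b, Btg1, Lpl, F13a1 and Ifi27l2a no longer passed, Cdkn2d was still higher, and Bst2, an interferon gene, was lower.

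**Figure D5:**
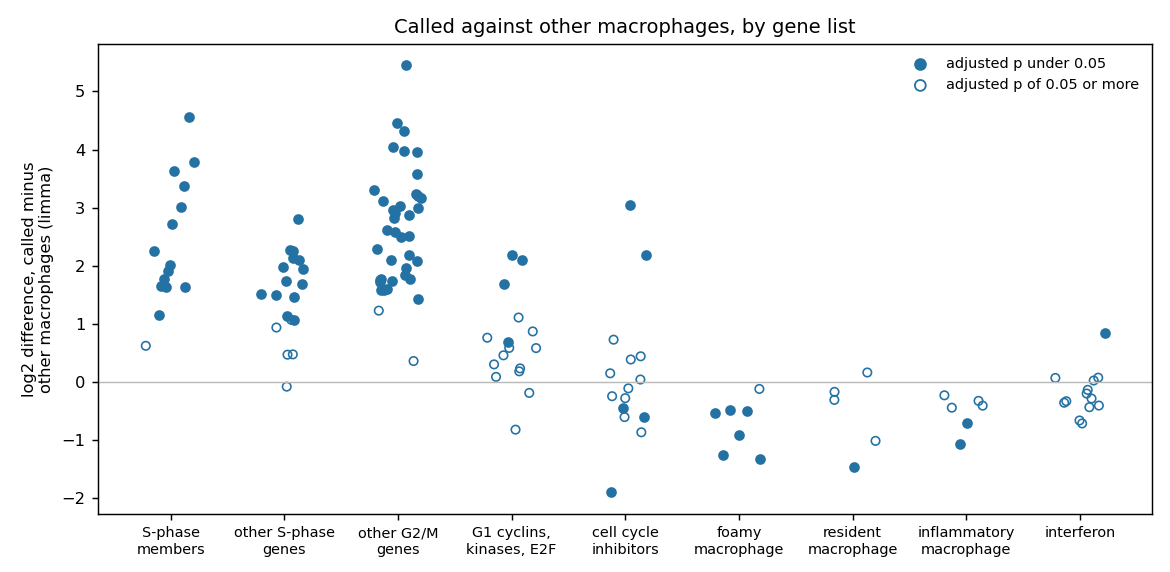
Log2 difference between called and other macrophages of the same library (limma with the library as a block), for the 15 S-phase genes and 8 other gene lists. Filled points are past the threshold. S-phase and further G2/M genes lie above 0, whereas 6 of 7 foamy macrophage genes lie below 0 and are filled. Genes low in other macrophages could pass the filter through the called cells, which favoured rises.

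The same lists were counted between the groups in macrophages, with all their cells. Of 11 G1 genes tested, 4 rose. Ccnd1, cyclin D1, had 0.288 and 0.264 against 0.896, 0.822 and 0.878 CP10K (1.49, SE 0.12, adjusted p = 8.17e-08, limma), and Ccnd3 (0.77), Ccnd2 (0.57) and Cdk6 (0.51) rose with it. These are the D cyclins and a kinase that pairs with them early in the cycle. Of 14 inhibitors tested, 3 rose (Btg2, 0.67, Cdkn1a, 0.58, and Trp53, 0.48) and 3 fell (Cdkn1c, -2.46, Gadd45a, -1.15, and Gadd45b, -0.38), against 9.95% of all genes tested that rose and 6.25% that fell. Of the further S-phase genes 1 of 10 tested rose (Prim1, 0.76), a share like that of all genes, and of the further G2/M genes 5 of 20 (Spc24, 1.23, Cbx5, 0.80, Smc4, 0.62, Hmgb2, 0.54, and Cks2, 0.46). Spc24 (0.0311 and 0.0276 CP10K) and Cbx5 (0.0389 and 0.0267 CP10K) were under the filter value in both Apoe-/- libraries. They passed it through the other libraries, which favours a rise.

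The foamy genes, which were lower in called cells, were also lower in the macrophages of the libraries labelled Oasl1-/-Apoe-/-, for 6 of 7. Fabp5 had 55.6 and 62.1 against 19.0, 17.2 and 18.1 CP10K (-1.70, SE 0.06) and Gpnmb had 23.6 and 23.6 against 10.3, 9.54 and 10.7 CP10K (-1.21, SE 0.06). All 13 interferon genes rose (median 1.89), 2 of 6 inflammatory genes rose (Ccl4, 0.78, and Ccl3, 0.24), and none of 5 resident genes tested passed (1 with an unadjusted p under 0.05). The part of these macrophage states in the shares of called cells was not tested.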

How the data were processed

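The authors aligned reads to mm10 with Cell Ranger 3.1.0 and used Seurat 4.0.3, and removed doublets with DoubletFinder. They deposited, for 18260 cells, natural log values of UMIs per 10000 UMIs of the cell plus 1, and genes in fewer than 3 cells of a library read 0. Here whole UMIs were recovered from them (100% within 0.01 of a whole number). Cells were assigned to a type by at least 3 detected markers (2 for dendritic cells) and a lead of 0.2 over the next type, a rule set after the values were seen. This left 1657 cells (9.07%) without a type, and 601 lay just under the lead. Mean UMIs per 10000 per library and type were tested with limma 3.58.1 (R 4.3.3) on log2(value + 0.05), for genes at a mean of at least 0.05 and types with at least 20 cells per library, at an adjusted p under 0.05 over all genes. Shares and sums were compared by exact permutation tests (SciPy 1.17.1). The fits were tested on simulated data. The genes and lists were chosen with earlier results of these data known, and all 40 genes are named. Alternatives changed the pseudocount, filter, model, gate, call, depth and libraries, and the replicate number was tried as a block.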

Additional observations from a re-analysis of the deposited data

Results flagged for a closer look

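The group difference of Mcm7 differed between macrophages and smooth muscle cells. On the log2 scale it was 0.81 in macrophages and -0.04 in smooth muscle cells, and the within-library test gave a gap of 0.85 (limma, SE 0.14, adjusted p = 0.0274). This was 1 of 8 cell cycle genes tested in that pair of types, where 240 of 6815 genes passed over all genes, and the test was chosen after the data were seen. In macrophages Mcm7 had 0.0772 and 0.0564 against 0.159, 0.144 and 0.160 UMIs per 10000. Groups of 2 and 3 libraries were too small for a test of single outlying libraries.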

How the results depend on the processing

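Single genes were followed only in the cell sets where they were past the threshold in the main fit, and none of these reversed its direction. Genes that were not past it were not followed. With 1 library left out, 124 of 160 values for single genes stayed on their side of the threshold and 36 lost it, and under the other settings 188 of 227 did. Without a filter on low genes, cell cycle genes past the threshold numbered 31 over all cells, 8 in macrophages, 1 in dendritic cells, 0 in fibroblasts and 2 in smooth muscle cells. With the mean of the deposited log values they numbered 20 in macrophages, 0 in fibroblasts, 0 in smooth muscle cells and 1 in monocytes. Without the called cells there were 5 over all cells, 6 in macrophages and 0 in fibroblasts and smooth muscle cells, as also at a pseudocount of 0.5 or a stricter gate in both of these types. With limma-voom there were 0 in fibroblasts and 3 in endothelial cells. Leaving out 1 library gave 8 to 16 in macrophages, 0 to 5 in fibroblasts, 0 to 1 in smooth muscle cells and 0 to 1 in monocytes. Most of these counts stand without the share of all genes past the threshold under the same setting. They show how far the counts moved, and not whether they exceed that share.

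Over all genes, a pseudocount of 0.01 gave 73 genes in T cells and 2 in dendritic cells, and no filter gave 75, 24, 158, 344 and 121 in T cells, dendritic cells, fibroblasts, smooth muscle and endothelial cells. Log means gave 8 in dendritic cells, limma-voom 198 in fibroblasts and 78 in monocytes, and the stricter gate 261 in monocytes. Leaving out 1 library gave 798 to 1568 in macrophages, 27 to 107 in T cells, 0 to 0 in dendritic cells, 143 to 511 in fibroblasts, 309 to 957 in smooth muscle cells, 158 to 218 in endothelial cells and 108 to 594 in monocytes.

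The difference in shares turned to -0.55 percentage points in T cells on S-phase genes and to -0.71 in monocytes under the stricter gate. On thinned S-phase genes, a setting added after the data were seen, it was -2.05 in T cells and -1.27 in monocytes. Without 1 library it ran from -0.0764 to 0.40 in endothelial cells and from -0.71 to 1.79 in monocytes. The difference in the balance of S-phase to G2/M sums turned to 0.10 in T cells and 2.80 in smooth muscle cells over called cells only, and to -0.21 in monocytes over mean log2 levels. Without 1 library it ran from -0.95 to 0.39 in dendritic cells, -0.18 to 0.34 in endothelial cells and -4.99 to 0.19 in fibroblasts. Between called and other macrophages, 119 genes and 5 S-phase genes passed after thinning, and 421 to 889 genes without 1 library. The cause of these shifts was not tested.

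Groups share replicate numbers, but no label pairs them, and same-numbered libraries correlated at only -0.0148 to 0.0573 in their deviations. With the replicate block, cell cycle genes past the threshold numbered 14 of 20 tested over all cells and 11 of 30 in macrophages. They numbered 1 of 30 in dendritic cells, 1 of 25 in fibroblasts, 1 of 8 in smooth muscle cells and 0 elsewhere. In dendritic cells 21 genes in all passed with the block. For the other cell sets the count of all genes with the block is not given here, so that no excess over all genes is read from them. Of 32 values for single genes, 6 lost their call under the block.

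Dendritic cells were not fitted under the stricter gate, which left fewer than 20 cells in a library, and their balance over called cells, like that of fibroblasts and monocytes, was not run. With 2 against 3 libraries no exact p can fall below 0.1. Dendritic cells, at 24 to 40 per library, limit every value given for them.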
